A study of Mus musculus with 48 samples.

Results

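The clustered histone genes of the mouse were followed in amygdala RNA from 6 groups of mice. The genes were chosen by name and annotation alone: protein-coding genes of GENCODE M21 whose symbol starts with Hist1h, Hist2h, Hist3h or Hist4h. All 67 such genes were among the 52636 gene identifiers of the expression table. By position, 54 belonged to the Hist1 cluster on chromosome 13, 10 to Hist2 on chromosome 3, 2 to Hist3 on chromosome 11, and 1, Hist4h4, lay on chromosome 6. By product they encoded 6 linker histones H1, 18 H2A, 18 H2B, 12 H3 and 13 H4 proteins.

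RNA was sequenced from punches of the right amygdala of 48 young adult female mice, 8 per group and 1 library per mouse. Wild-type (WT) mice and mice with 1 intact copy of Brd1 (Brd1+/-), a gene for a bromodomain scaffold protein that binds acetylated histones, received saline vehicle, 10 mg/kg imipramine (IMN) or 5 mg/kg fluoxetine (FLX). The groups were thus WT vehicle, WT IMN, WT FLX, Brd1+/- vehicle, Brd1+/- IMN and Brd1+/- FLX. The labels give the strain of all mice as C57BL/6NTac-Brd1, of which the WT mice do not carry the deleted allele, and mice of every group, vehicle included, had been injected and had gone through tail suspension, open field and forced swim tests before the brains were taken. The Brd1 allele was made by flanking part of the gene with loxP sites, the punches hold all cell types of the region, and fewer cells of a type cannot be told apart from less RNA per cell. Mice given a drug all bore sample codes above those of mice given vehicle, so that whatever handling followed the codes cannot be told apart from the drugs. Brd1 itself lay between 21.8 and 30.6 TPM in Brd1+/- vehicle and between 26.5 and 41.0 TPM in WT vehicle, and its log2 difference was -0.45 in vehicle, -0.68 in IMN and -0.49 in FLX mice (adjusted p = 0.0512, 0.102 and 0.0362; limma). TPM is a read share corrected for gene length and scaled to the same total in every library, so levels can be compared between genes, but the number of reads behind a value is unknown.

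Histones package DNA into nucleosomes, and dividing cells need large amounts of them while DNA is copied. Most clustered histone genes make short messenger RNAs without introns and without a poly(A) tail, whose 3′ end is set by a conserved stem-loop bound by the protein SLBP. Neurons no longer divide, and in differentiated cells some clustered genes are known to give longer, polyadenylated transcripts that end beyond the stem-loop. Methods that select poly(A) RNA therefore see mainly those longer forms. Whether poly(A) RNA was selected for these libraries is not stated in the sources used here.

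The stem-loop is shown for 7 members because the annotated transcripts differ in how far they run on past it. Sequences were read from the GENCODE M21 transcripts (GRCm38), 5′ to 3′, with the stem-loop in capitals and up to 5 bases on either side in lower case.
Hist1h1c, chr13:23739507-23739532, plus strand: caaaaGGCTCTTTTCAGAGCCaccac
Hist3h2a, chr11:58955167-58955192, plus strand: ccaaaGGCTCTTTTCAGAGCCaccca
Hist3h2ba, chr11:58949344-58949369, plus strand: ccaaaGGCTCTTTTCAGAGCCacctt
Hist2h3c2, chr3:96238480-96238505, minus strand: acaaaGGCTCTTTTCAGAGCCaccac
Hist1h2bf, chr13:23573760-23573785, minus strand: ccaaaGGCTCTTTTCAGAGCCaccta
Hist1h4i, chr13:22040961-22040986, minus strand: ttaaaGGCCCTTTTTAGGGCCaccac
Hist2h2ac, chr3:96220413-96220438, minus strand: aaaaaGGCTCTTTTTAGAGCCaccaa
A stem-loop of this form lay within 200 bases after the stop codon in 44 of the 67 members, in 6 different versions, of which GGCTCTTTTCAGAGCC was found in 26 and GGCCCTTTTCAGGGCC in 7. Another 13 members had no annotated 3′ UTR and 10 had one without a match. Among these 10, the annotated 3′ UTR of Hist1h2af was 1 base and that of Hist1h2ah 2 bases long, too short to hold a stem-loop. The annotated transcript of Hist1h2bf stopped 29 bases after the stem-loop, whereas that of Hist1h1c ran on for 840 bases, that of Hist3h2a for 1643 and that of Hist3h2ba for 169.

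Expression was concentrated in 4 members. Hist1h1c, which encodes the linker histone H1.2, averaged 41.5 TPM over the 48 libraries. Hist3h2a, an H2A gene, averaged 35.1 TPM. Hist1h2bc, an H2B gene, averaged 32.6 TPM and Hist3h2ba, another H2B gene next to Hist3h2a, 29.9 TPM. Together they held 60.1% of the summed level of all members. The next 6 members, Hist2h2be, Hist1h2bq, Hist2h3c1, Hist2h3c2, Hist1h2bf and Hist1h2bg, averaged between 4.79 and 7.14 TPM.

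A mean of 1 to 10 TPM was found for 24 members, and 39 averaged under 1 TPM, against 63.2% of all protein-coding genes that averaged at least 1 TPM. Values were above 0 in every library for 34 members. Hist1h2aa, known as a testis H2A gene, and Hist2h2aa2 were listed at 0 in all 48 libraries. The 0 of Hist2h2aa2 cannot be read as absence of its RNA, since 100% of its 50-base stretches also occur in Hist2h2aa1. An antisense gene, Gm20632, also covers 100% of its exons, at a mean of 5.86 TPM. Hist1h1t, the testis linker histone, was listed at 0 in 42 and averaged 0.0205 TPM, yet Hist1h2ba, known as a testis H2B gene, averaged 3.29 TPM and was above 0 in all 48. A share of 38.2% of the 50-base stretches of Hist1h2ba also occurred in other genes.

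**Figure D1:**
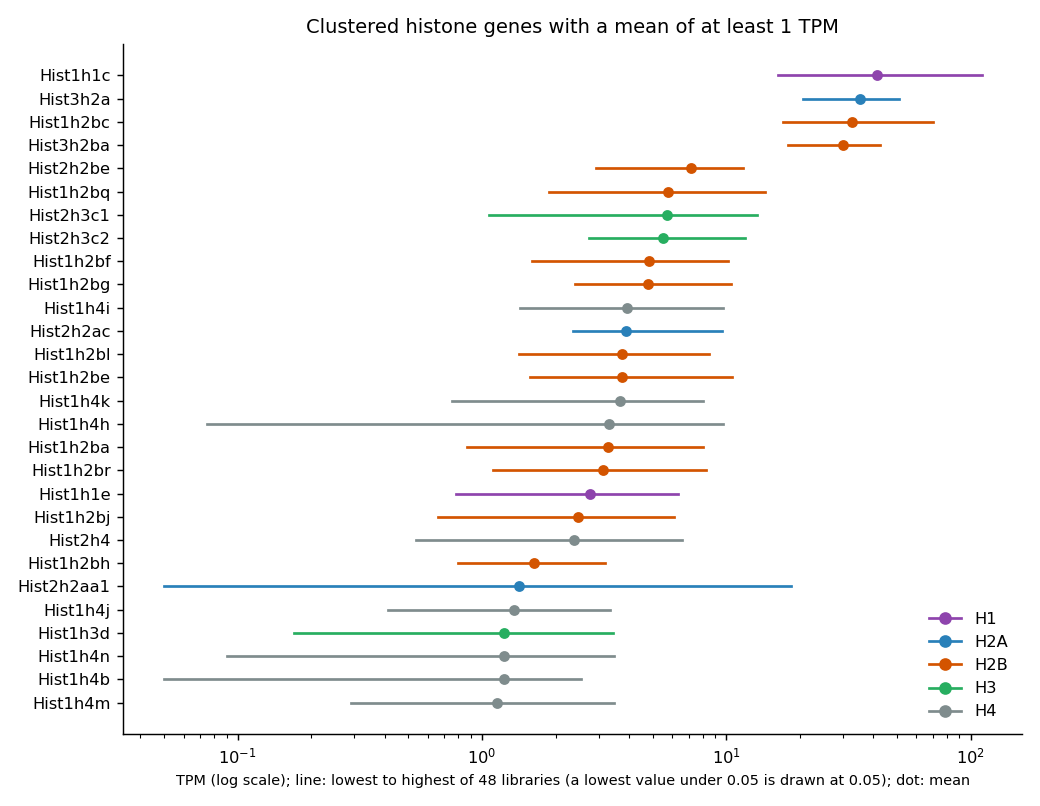
Level of the 28 clustered histone genes with a mean of at least 1 TPM, ranked by mean; the x axis is TPM on a log scale, dots are means over 48 libraries and lines run from the lowest to the highest library, coloured by histone class. Hist1h1c, Hist3h2a, Hist1h2bc and Hist3h2ba stand above all others, with means from 29.9 to 41.5 TPM, and the next member, Hist2h2be, averages 7.14 TPM.

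The classes differed in how the level was spread over their members. The 18 H2B genes held 45.7% of the summed level with a median of 3.21 TPM, and 12 of them averaged at least 1 TPM. The 18 H2A genes held 19.3%, but the median member was at 0.207 TPM and Hist3h2a alone made up 78.5% of the class. Among the 6 H1 genes, Hist1h1c carried 91.9% of the class level. The 13 H4 genes shared theirs more evenly: the highest, Hist1h4i, held 18.6% and the median member was at 1.23 TPM. The 12 H3 genes had the lowest share of all, 6.38%.

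The level also differed with the annotated 3′ end. The 22 members whose transcript ran on for more than 100 bases past the stem-loop held 61.8% of the summed level, with a median of 1.49 TPM. The 22 that stopped within 100 bases held 10.5%, with a median of 0.621 TPM. A poly(A) signal (AATAAA or ATTAAA) lay in the last 50 bases of the transcript in 17 members, including 6 of the 10 highest. These 17 held 62.7% of the summed level and had a median of 3.32 TPM, against 0.470 TPM for the 50 members without the signal. Hist1h2bc, among the 4 most abundant members, had no stem-loop within 200 bases after the stop codon of its annotated transcript of 2 exons, and no signal in its last 50 bases. The ranges overlapped widely, from 0.0205 to 41.5 TPM with the signal and from 0 to 32.6 TPM without it.

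Near-identical copies limit what the level of a single member means. For the median member, 49.5% of all 50-base stretches, the read length used, occurred in at least 1 other gene, and for 8 members the share was over 90%. Only 4 members were unique throughout, among them Hist2h2be. Of the 4 most abundant members, Hist1h1c shared 8.54% of its stretches, Hist3h2ba 22.1%, Hist1h2bc 30.1% and Hist3h2a 31.5%, the last with Trim17, whose exons overlap it on the same strand. Hist1h2bq and Hist1h2br shared 97.3% and 88.7% of theirs, mainly with each other, and their ratio ranged from 0.998 to 2.85 over the libraries. Hist1h2bf and Hist1h2bg had a median ratio of 1.02. Exons of 21 members overlapped a gene on the opposite strand, and since use of the strand in counting is not stated, reads of such partners cannot be told apart. For Hist2h2aa1, Hist2h2aa2, Hist2h3b and Hist2h2bb such a partner covered 100% of the exons, at a mean of 0.920 to 5.86 TPM. Opposite-strand partners of the other members averaged at most 0.0846 TPM.

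A locus of the Hist2 cluster showed such an ambiguity in the values. Hist2h2aa1, an H2A gene at chr3:96245497-96246082, was listed at 0 in 42 libraries, the 16 vehicle libraries among them. It reached 18.4 TPM in Brd1+/- IMN 4, 15.4 in WT IMN 3, 14.7 in Brd1+/- FLX 6, 10.0 in WT FLX 1, 5.31 in Brd1+/- IMN 7 and 3.81 in WT FLX 3. The same 6 libraries, and no other, had a level above 0 for Gm20634, a transcript whose exons cover 90.3% of those of Hist2h2aa1 and 100% of those of its H3 neighbour Hist2h3c1. In 5 of the 6, Hist2h3c1 was also low, between 0.287 and 0.469 times its near-copy Hist2h3c2, while the ratio was 0.795 to 1.59 in the 42 other libraries. Brd1+/- IMN 7, with 0.300 TPM of Gm20634, had a ratio of 1.66. The 6 libraries came from all 4 drug groups, and Hist2h2aa1 was above the filter in too few of them to be tested in any comparison.

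H2A and H2B genes often lie head to head, with a short stretch of DNA between their starts from which both are transcribed in opposite directions. Of the 67 members, 24 formed 12 such pairs with 175 to 305 bases between them. The 250 bases before the RefSeq start of the H2A gene (GRCm38.p6), which cover most or all of the shared stretch, are shown for the pair with the highest H2B level, Hist1h2ac with Hist1h2bc, and for the pair with the closest levels, Hist2h2ac with Hist2h2be. Capitals mark matches, on either strand, to the CCAAT box, to a TATA box and to the octamer ATTTGCAT.
Hist1h2ac, chr13:23683960-23684209, minus strand: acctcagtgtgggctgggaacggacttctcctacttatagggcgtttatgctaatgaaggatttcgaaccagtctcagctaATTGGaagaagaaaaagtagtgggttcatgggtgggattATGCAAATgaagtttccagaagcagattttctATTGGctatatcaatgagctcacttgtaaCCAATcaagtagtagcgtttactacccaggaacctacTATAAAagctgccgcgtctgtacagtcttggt
Hist2h2ac, chr3:96220881-96221130, minus strand: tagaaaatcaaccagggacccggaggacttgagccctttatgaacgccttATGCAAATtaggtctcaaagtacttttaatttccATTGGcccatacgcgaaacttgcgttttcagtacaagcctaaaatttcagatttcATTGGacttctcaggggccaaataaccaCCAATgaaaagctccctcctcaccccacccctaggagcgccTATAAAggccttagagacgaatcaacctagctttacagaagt

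In all 12 pairs the H2B gene had the higher mean, and this held in each of the 6 groups. Hist1h2bc stood at 32.6 TPM and its partner Hist1h2ac at 0.987, a 33.01-fold difference seen in 48 of 48 libraries. Hist2h2be at 7.14 TPM exceeded Hist2h2ac at 3.89 by only 1.84-fold, in 46 of 48. The ratio was over 10 in 6 of the 11 pairs where it could be formed, with a median of 12.6, and Hist1h2aa was listed at 0 beside Hist1h2ba. The H2B gene was higher in every library in 8 pairs and in at least 46 libraries in the rest. In these pairs the median share of 50-base stretches held in common with other genes was 73.0% for H2A and 62.6% for H2B members. The most abundant H2A gene, Hist3h2a, was not in a pair.

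**Figure D2:**
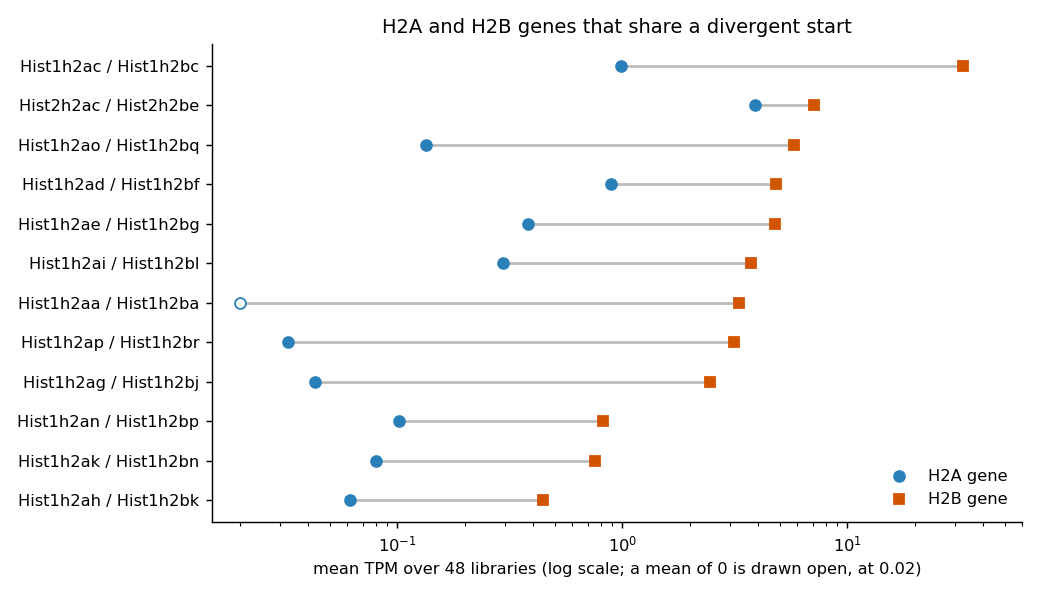
Mean TPM over 48 libraries (log scale) of the H2A gene (circle) and the H2B gene (square) of each of the 12 head-to-head pairs, ordered by the H2B level; a mean of 0 is drawn as an open circle. The square lies to the right of the circle in all 12 pairs, least so for Hist2h2ac and Hist2h2be, 3.89 against 7.14 TPM.

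The promoters had motifs in common that the choice of members did not use. RefSeq promoter sequences of 300 bases (250 before and 50 after the start) were matched for 61 members and searched on both strands. CCAAT was found in 85.2% of them, against 37.4% of all 32851 promoters: in every matched H1, H2A, H2B and H3 member but in only 3 of 12 H4 members. TATAAA was found in 57.4% against 13.6%. The octamer ATTTGCAT was found in 13 members, 7 of 17 H2A and 6 of 16 H2B, or 21.3% of all members against 1.74% of all promoters. Paired genes share much of this window, so these shares count some sequence more than once.

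Across libraries, the summed level of the 67 members ranged from 146 TPM in WT vehicle 4 to 416 TPM in Brd1+/- FLX 8. It averaged 218 ± 93.5 TPM in WT vehicle (SD, n = 8), 207 ± 43.1 in WT IMN and 223 ± 32.9 in WT FLX. In the Brd1+/- groups it averaged 240 ± 41.1 with vehicle, 230 ± 61.4 with IMN and 271 ± 94.5 with FLX (SD, n = 8 each). The groups overlapped throughout, and the spread within WT vehicle and Brd1+/- FLX was wider than any distance between group means. The same few libraries were at the top for many members: of the 57 members with a mean of at least 0.1 TPM, 23 were highest in WT vehicle 1, 11 in Brd1+/- FLX 8 and 8 in Brd1+/- FLX 2.

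The libraries with the largest sums also stood apart in markers of tissue next to the amygdala. WT vehicle 1 and Brd1+/- FLX 8 had 29781 and 29137 TPM of 8 choroid plexus markers, led by Ttr, and all 8 were above 0 in both; the other 46 libraries had 8.84 to 10800 TPM. Their histone sums were 407.5 and 416 TPM. In 7 libraries, 8 markers of striatal projection neurons summed to 6012 to 8971 TPM, against 155.02 to 4149 in the other 41, with none of the 8 at 0 in any library. The histone sums of those 7 lay between 199 and 403 TPM and included the 4 highest after those of the choroid plexus-rich libraries. In the remaining 39 libraries the sum lay between 146 and 290 TPM. The part of these tissues in the histone levels was not tested. Of 10 neuron and amygdala markers, 8 were above 0 in every library and Crh and Tac2 were at 0 in some; the 10 summed to 1793 to 5024 TPM.

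**Figure D3:**
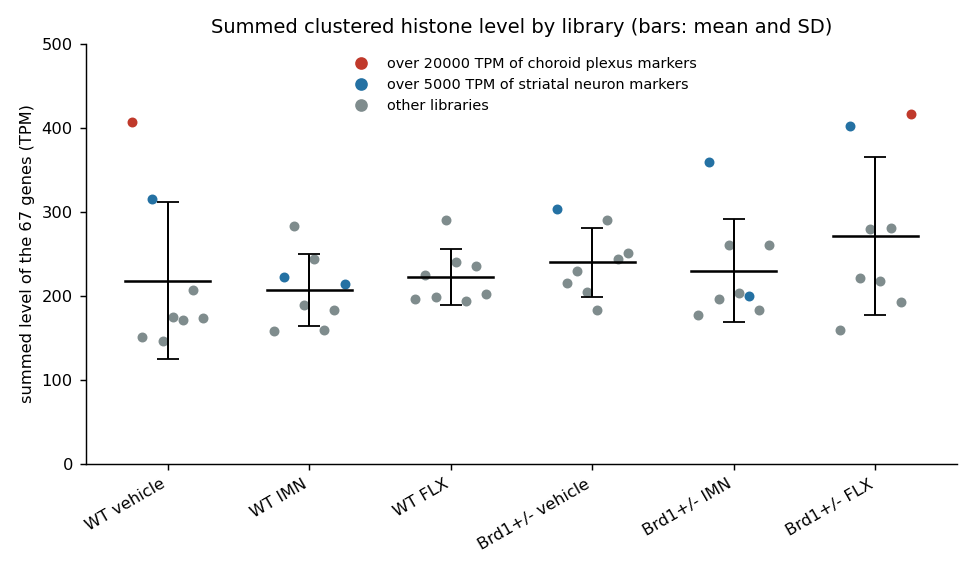
Summed level of the 67 clustered histone genes (TPM, y axis) in each library of the 6 groups; black lines are the group mean and SD (n = 8). The 2 libraries rich in choroid plexus markers (red) lie at 407.5 and 416 TPM, libraries rich in striatal markers (blue) lie between 199 and 403, and the others (grey) between 146 and 290.

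The most abundant members did not vary alike. Hist1h1c was lowest at 16.2 TPM in WT vehicle 4 and highest at 111 TPM in Brd1+/- FLX 8, with a coefficient of variation of 45.0% over the 48 libraries. Hist1h2bc ranged from 17.1 to 70.1 TPM, with a coefficient of 39.5%. Both exceeded the coefficient of at least 85.5% of the 9712 genes that averaged 10 to 100 TPM, whose median was 19.9%. Hist3h2a ranged from 20.5 to 51.0 TPM and Hist3h2ba from 17.8 to 42.6, with coefficients of 19.5% and 16.7%, close to that median. In WT vehicle 1 and Brd1+/- FLX 8 Hist1h1c stood at 78.8 and 111 TPM, whereas Hist3h2ba stood at 27.9 and 17.8 TPM, the latter its lowest value of all. The ratio of Hist1h1c to Hist1h2bc thus stayed between 0.813 and 2.06, and that of Hist1h1c to Hist3h2ba ran from 0.617 to 6.23.

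**Figure D4:**
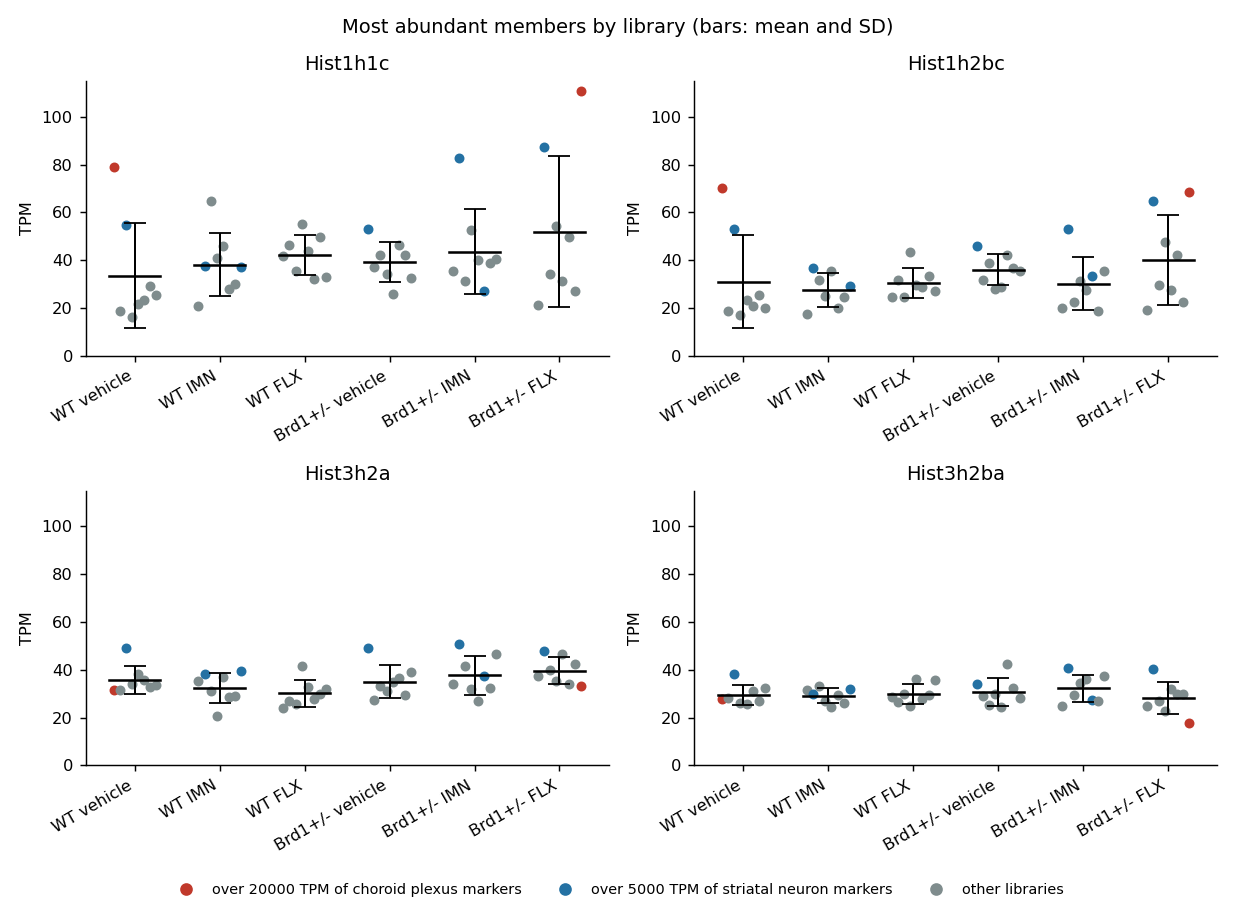
TPM (y axis) of Hist1h1c, Hist1h2bc, Hist3h2a and Hist3h2ba in each library of the 6 groups, with group mean and SD (n = 8) as black lines and the libraries rich in choroid plexus (red) or striatal (blue) markers coloured. The highest values of Hist1h1c and Hist1h2bc, 111 and 70.1 TPM, are in coloured libraries, but coloured libraries also lie as low as 27.01 and 29.3 TPM and grey ones reach 64.8 and 47.6 TPM, while Hist3h2ba stays within 17.8 to 42.6 TPM.

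The study asked how loss of 1 Brd1 copy and both antidepressants change expression, and 11 comparisons followed from its design: genotype within each treatment, each drug against vehicle and against the other drug within each genotype, and the interaction of genotype with each drug. Each was fitted with limma on log2(TPM + 0.1) across all genes that reached 0.1 TPM in at least 8 of the samples compared. Differences are on that scale, which understates the change of low genes, and a call means a Benjamini-Hochberg adjusted p under 0.05 over all genes. Of the 67 members, 48 were tested in all 11 comparisons, 11 in some and 8 in none. With limma, 0 members were called in any comparison. At an unadjusted p under 0.05 there were 20 of 570 member tests (3.51%), against 9.18% over all genes tested in the same comparisons.

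In mice given vehicle, 51 members were tested for genotype and 0 were called, against 0.708% of all genes. At an unadjusted p under 0.05 there was 1 member, 1.96% of those tested, against 8.52% of all genes. The estimates leaned one way: 44 of the 51 members were estimated higher in Brd1+/- mice, with a median log2 difference of 0.34, while 55.5% of all genes were and their median was 0.03. Glial markers leaned the same way: 8 of 8 markers of mature oligodendrocytes, the myelin-forming cells, were estimated higher, all with an unadjusted p under 0.05 and with a median of 1.51, and 0 were called by limma. So were 8 of 8 oligodendrocyte precursor markers (median 0.56) and 8 of 8 microglia markers (median 0.28), each with 4 at an unadjusted p under 0.05. The summed level of the 8 mature oligodendrocyte markers, none at 0 in any library, ran from 2352 to 16494 TPM in Brd1+/- and from 697 to 11241 TPM in WT vehicle mice. The part of these cells in the histone estimates was not tested. The member with the smallest p was Hist1h3h, an H3 gene of low level that averaged 0.476 TPM in Brd1+/- and 0.211 TPM in WT mice (log2 difference 0.85 ± 0.40 SE, adjusted p = 0.571, limma). Hist1h1c averaged 39.3 TPM in Brd1+/- and 33.5 TPM in WT mice (log2 difference 0.41 ± 0.28 SE, adjusted p = 0.770, limma). Members share reads and libraries, so that their estimates are not independent of each other.

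This comparison depended on WT vehicle 1. Hist1h1c stood in the WT vehicle mice at 78.8, 18.9, 54.7, 16.2, 21.7, 23.5, 29.0 and 25.5 TPM. In the Brd1+/- vehicle mice it stood at 53.1, 37.3, 42.4, 34.3, 26.0, 46.5, 42.2 and 32.4 TPM. Thus 6 WT libraries lay at the low end and WT vehicle 1 and WT vehicle 3, rich in choroid plexus and striatal markers, lay above all Brd1+/- libraries. Without WT vehicle 1, 19 of 50 members had an unadjusted p under 0.05, all higher in Brd1+/- mice, against 14.4% of all genes, and 0 were called, against 1.46%.

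Without all marker-rich libraries, which left 6 WT and 7 Brd1+/- mice, 24 of 49 members had an unadjusted p under 0.05, against 18.5% of all genes, and 2 were called, against 0.853% of all genes. Hist1h2bc was then 34.6 ± 5.38 TPM in Brd1+/- (SD, n = 7) and 20.9 ± 3.03 TPM in WT mice (SD, n = 6), with no overlap between 27.9 and 25.3 TPM. Its log2 difference was 0.72 ± 0.12 SE (adjusted p = 0.0184, limma). Hist1h1c was 37.3 ± 7.01 and 22.5 ± 4.61 TPM (SD), with a log2 difference of 0.73 ± 0.15 SE (adjusted p = 0.0431, limma). Hist3h2a and Hist3h2ba differed by little in the same fit, with 33.1 against 34.3 TPM and 30.2 against 28.5 TPM. In this fit 8 of 8 mature oligodendrocyte markers were also estimated higher in Brd1+/- mice, all with an unadjusted p under 0.05 and with a median of 2.02, and 0 were called by limma. Their sum was 2352 to 16494 TPM in the 7 Brd1+/- and 697 to 5136 TPM in the 6 WT mice. Of the choroid plexus markers, 6 of 6 tested were still estimated higher, 4 with an unadjusted p under 0.05. The kept libraries thus still differed in markers of neighbouring tissue. Choroid plexus markers summed to 11.9 to 10800 TPM (median 199.8) in the 7 Brd1+/- mice. In the 6 WT mice they summed to 9.06 to 22.4 TPM (median 18.3). Striatal markers summed to 206.6 to 3010 TPM (median 321.8) and 155.02 to 640 TPM (median 304.1). The part of these cells and tissues in both calls was not tested. The leaving out of these libraries was chosen after seeing the data. It took out the 2 highest histone sums of the WT vehicle mice and the highest of the Brd1+/- vehicle mice.

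In mice given IMN, 0 of 48 members were called for genotype, against 0.017% of all genes, 0 had an unadjusted p under 0.05, against 3.58%, and the median log2 difference was 0.11. In mice given FLX, 0 of 51 members were called, against 1.54% of all genes, and 4 had an unadjusted p under 0.05, against 16.6%. All 4 were estimated higher in Brd1+/- mice: Hist2h2ab, Hist3h2a, Hist1h4m and Hist1h2af.

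Hist2h2ab, an H2A gene, was listed at 0 in 4 of the 8 WT FLX mice and stood at 0.29 to 1.52 TPM in the other 4. In Brd1+/- FLX mice it was above 0 in all 8, from 0.37 to 2.59 TPM. The groups overlapped, with a log2 difference of 2.55 ± 0.66 SE (adjusted p = 0.0603, limma). All 8 Brd1+/- but only 4 WT libraries reached the 0.1 TPM of the filter, so that the gene was tested through the group where it was higher. The size of the difference depends on how values of 0 are treated, and it was 0.99 with a pseudocount of 1. An antisense gene, Gm15444, covers 68.2% of the exons of Hist2h2ab, at no more than 0.392 TPM in any library.

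Hist3h2a stood in the WT FLX mice at 24.1, 26.9, 25.8, 41.4, 32.98, 27.6, 29.7 and 32.1 TPM. In the Brd1+/- FLX mice it stood at 37.4, 47.97, 40.0, 35.4, 46.7, 33.9, 42.2 and 33.4 TPM. Only WT FLX 4 rose into and above the lower part of the Brd1+/- range, and the log2 difference was 0.40 ± 0.11 SE (adjusted p = 0.0810, limma). Without WT FLX 4 both Hist3h2a and Hist2h2ab were called. The log2 difference was then 0.47 for Hist3h2a (adjusted p = 0.0306, limma) and 2.90 for Hist2h2ab (adjusted p = 0.0299, limma). Of 208 such fits over all comparisons, each without a single library, 207 had 0 members called. Over all genes, 448 were called for genotype in FLX mice without WT FLX 4, against 364 with all libraries. Without the marker-rich libraries, which are all Brd1+/- in this comparison, 0 of 51 members were called and the median difference turned from 0.19 to -0.06.

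FLX was compared with vehicle within each genotype. In WT mice 0 of 51 members were called, against 0.335% of all genes, and 2 had an unadjusted p under 0.05, against 16.8%. Hist1h1e, a linker histone gene, averaged 3.25 TPM with FLX and 1.83 TPM with vehicle (log2 difference 0.82 ± 0.29 SE, adjusted p = 0.163, limma), and Hist3h2a averaged 30.1 and 35.8 TPM (log2 difference -0.26 ± 0.11 SE, adjusted p = 0.271, limma). Without the marker-rich libraries, which were 2 of the 8 WT vehicle mice and none of the WT FLX mice, 4 of 50 members were called, all higher with FLX, against 5.48% of all genes, and 18 had an unadjusted p under 0.05, against 22.9%. The 4 called included Hist1h1c (log2 difference 0.91 ± 0.15 SE, adjusted p = 0.0160, limma) and Hist1h2bc (0.53 ± 0.13 SE, adjusted p = 0.0329, limma). The others were Hist1h1e (1.06 ± 0.27 SE, adjusted p = 0.0377, limma) and Hist1h1d (0.92 ± 0.26 SE, adjusted p = 0.0498, limma). Hist1h1d averaged only 0.429 TPM with FLX and 0.176 TPM with vehicle, near the filter of 0.1 TPM. Exons of Hist1h2be overlap 25.7% of the exonic bases of Hist1h1e on the same strand. Hist1h1c then stood at 32.3 to 55.3 TPM in WT FLX and at 16.2 to 29.0 TPM in the 6 WT vehicle mice. Markers of oligodendrocytes were higher in the same fit: 7 of 8 mature markers were called and 8 of 8 had an unadjusted p under 0.05, with a median log2 difference of 1.63, as had 5 of 8 precursor markers, of which 1 was called. With all libraries, the 8 mature markers were likewise estimated higher with FLX, all with an unadjusted p under 0.05 (median 1.23), and 0 were called by limma. The sum of the mature markers was 2016 to 8670 TPM in WT FLX and 697 to 5136 TPM in the 6 WT vehicle mice, and its part in the histone calls was not tested. Choroid plexus markers summed to 13.04 to 8838 TPM (median 20.7) in WT FLX and 9.06 to 22.4 TPM (median 18.3) in the 6 WT vehicle mice. These 6 mice are also the WT group of the reduced genotype comparison above, so that both rest on the same low values.

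In Brd1+/- mice given FLX or vehicle, 0 of 52 members were called, against 0.731% of all genes, and 1 had an unadjusted p under 0.05, against 6.94%. This was Hist1h2af, an H2A gene that averaged 0.349 TPM with FLX and 0.105 TPM with vehicle (log2 difference 1.18 ± 0.31 SE, adjusted p = 0.131, limma), and that shares 79.7% of its 50-base stretches with other members. Hist1h1c averaged 52.0 TPM with FLX and 39.3 TPM with vehicle, and its log2 difference was 0.22 with a 95% interval from -0.40 to 0.84.

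IMN was compared with vehicle in the same way. In WT mice 0 of 49 members were called, with 0% of all genes called, and 0 had an unadjusted p under 0.05, against 4.58%. In Brd1+/- mice 0 of 50 members were called, against 0.776% of all genes, and 3 had an unadjusted p under 0.05, against 9.3%, all lower with IMN: Hist2h4, Hist1h3c and Hist1h2ac. Hist2h4, an H4 gene, averaged 1.90 TPM with IMN and 2.99 TPM with vehicle (log2 difference -0.77 ± 0.32 SE, adjusted p = 0.425, limma). Of the 50 members, 43 were estimated lower with IMN, with a median of -0.27 against -0.03 over all genes. All 8 mature oligodendrocyte markers were estimated lower too, each with an unadjusted p under 0.05 (median -1.03), and so were 6 of 8 endothelial, 4 of 8 microglia and 4 of 8 precursor markers at that p, with 0 called by limma. Their part in the members' estimates was not tested.

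The drugs were also set against each other. In WT mice 0 of 49 members were called, with 0% of all genes called, and 1 had an unadjusted p under 0.05, against 4.78%: Hist2h2be, at 8.13 TPM with FLX and 6.16 TPM with IMN (log2 difference 0.46 ± 0.20 SE, adjusted p = 0.858, limma). In Brd1+/- mice 0 of 53 were called, with 0% of all genes called, and 5 had an unadjusted p under 0.05, against 2.99%, all higher with FLX. Most estimates lay on the FLX side in both genotypes, 43 of 49 with a median of 0.25 in WT and 46 of 53 with a median of 0.30 in Brd1+/- mice. Over all genes, 60.5% were estimated higher with FLX in WT mice (median 0.05) and 47.1% in Brd1+/- mice (median -0.01). The 8 mature oligodendrocyte markers were all estimated higher with FLX in both genotypes, with medians of 0.34 and 0.25, and 0 of them had an unadjusted p under 0.05.

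Whether a drug acted differently in the genotypes was tested by the interaction terms. For IMN 0 of 57 members were called, against 0.536% of all genes, and 0 had an unadjusted p under 0.05, against 9.24%. For FLX 0 of 59 were called, against 1.71%, and 3 had an unadjusted p under 0.05, against 16.8%: Hist3h2a, Hist1h3h and Hist1h2ae. The interaction estimate of Hist3h2a was 0.44 ± 0.16 SE (adjusted p = 0.159, limma). Without the marker-rich libraries, 18 of 57 members had an unadjusted p under 0.05 for FLX, against 21% of all genes, and 1 was called, against 1.9%: Hist1h1c, with -1.002 ± 0.26 SE (adjusted p = 0.0467, limma), the difference between FLX and vehicle being smaller in Brd1+/- than in WT mice. The 8 mature oligodendrocyte markers had negative interaction estimates in this fit as well, all with an unadjusted p under 0.05 and with a median of -2.67, and 0 were called by limma. The same 6 WT vehicle mice enter this term.

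In the other 8 comparisons, 0 members were called by limma without the marker-rich libraries. For genotype in IMN mice 1 of 46 members had an unadjusted p under 0.05, where 5.94% of all genes did and 0.0178% were called. In FLX mice 2 of 51 had, where 15.1% did and 0.555% were called. For IMN against vehicle it was 6 of 45 members in WT mice (14.9% of all genes, with 0% called). In Brd1+/- mice it was 6 of 49 (9.85%, with 0.312% called). For FLX against vehicle in Brd1+/- mice it was 3 of 50 members (6.93% of all genes, with 0.286% called). Between the drugs it was 0 of 48 members in WT (2.72% of all genes) and 3 of 50 in Brd1+/- mice (4.29%). For the interaction with IMN it was 12 of 55 (17.9%, with 0.31% called). The members' share at that p lay furthest above that of all genes for genotype in vehicle mice. FLX against vehicle in WT mice and the interaction with FLX came next. It was a little higher too for the interaction with IMN, and in Brd1+/- mice for IMN against vehicle and FLX against IMN. In the rest the share of members was below that of all genes. The first 3 all use the 6 WT vehicle mice kept. WT vehicle 1 and WT vehicle 3, left out, had the highest histone sums of that group, 407.5 and 315 TPM, against 146 to 207 TPM. Leaving them out by itself lowered the WT vehicle level. The members are not independent of each other, and their shares were not compared by a test. For the interaction with FLX, 1 of 57 members was called, near the 1.9% of all genes.

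**Figure D5:**
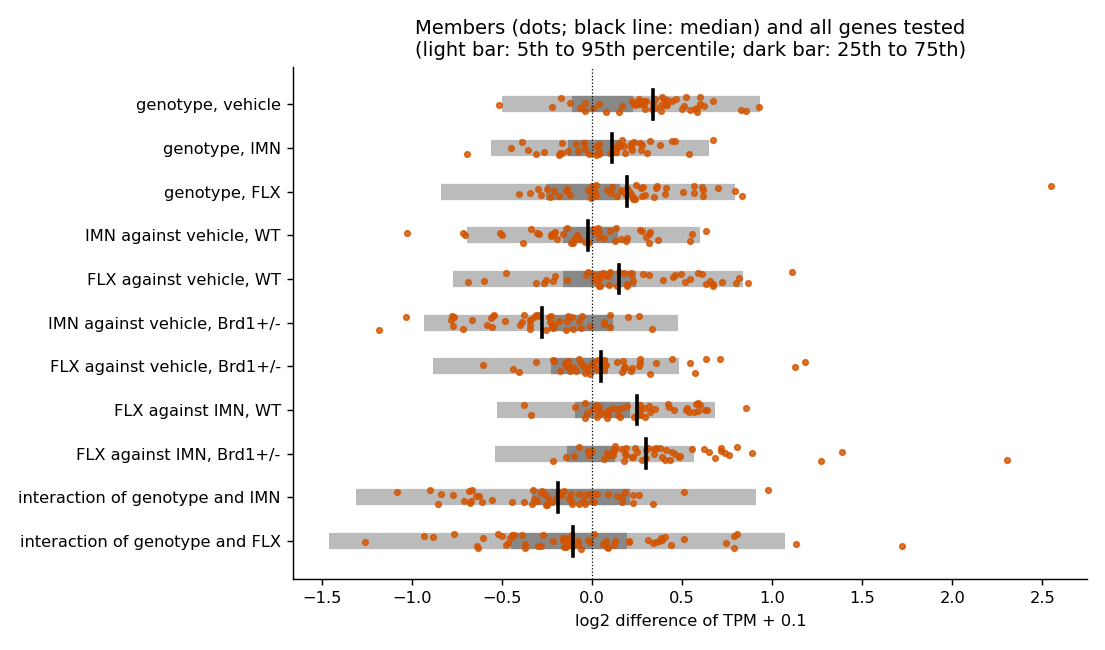
Log2 difference of TPM + 0.1 (x axis) of every tested member (dots) in each of the 11 comparisons (y axis), with the member median as a black line and all genes tested as bars (light, 5th to 95th percentile; dark, 25th to 75th). Most members lie within the light bars, and their medians run from -0.27 for IMN against vehicle in Brd1+/- mice to 0.34 for genotype in vehicle mice.

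Genes with related roles were looked at beside the members. The 11 replication-independent histone genes, which supply histones outside DNA replication and include H3f3b and H2afz at means of 132.4 and 110 TPM, had 0 calls in 118 tests over the comparisons and 12 with an unadjusted p under 0.05. The 18 factors for 3′ end formation and turnover of histone messenger RNA, among them Slbp at 35.4 TPM, the exonuclease gene Eri1 at 5.81 TPM and the 2 most abundant, Srrt at 266 and Cstf2 at 119 TPM, had 0 calls in 198 tests and 11 with an unadjusted p under 0.05. The 18 S phase and proliferation genes had 0 calls in 175 tests and 10 with an unadjusted p under 0.05. The proliferation marker Mki67 averaged 0.582 TPM and Top2a 0.580 TPM, the latter listed at 0 in 17 libraries, while Pcna, also used in DNA repair, and Ccne1 averaged 40.7 and 14.6 TPM. The summed level of the S phase list was 129 and 194 TPM in Brd1+/- FLX 8 and WT vehicle 1, above the 79.5 to 125.2 TPM of all other libraries.

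Of 14 structural RNAs without a poly(A) tail, 3 were above 0 in every library. For genotype in vehicle mice 5 were tested and 2 were called. Rn7s2 and Rn7s1, which encode the RNA of the signal recognition particle, were higher in Brd1+/- than in WT mice given vehicle by 5.16 ± 0.24 and 5.02 ± 0.23 on the log2 scale (SE; adjusted p = 2.39e-09 and 2.13e-09, limma). The 14 RNAs of this list had 14 calls in 66 tests over the comparisons, against 1583 calls in 267812 tests over all genes. The sum of the 14 RNAs was 169 to 319 TPM in the 8 Brd1+/- vehicle libraries and 6.89 to 37.0 TPM in the other 40. In Brd1+/- vehicle most of it came from Rn7s1, Rn7s2 and Rn7s6, whose highest values were 122.1, 123.6 and 60.8 TPM. Rn7sk reached at most 15.2 TPM and each of the rest at most 9.40 TPM. All 5 RNAs tested for genotype in vehicle mice were estimated higher in Brd1+/- mice, 4 with an unadjusted p under 0.05. The sum therefore does not show a rise of the whole list. The summed level of the clustered histone genes was 183 to 303 TPM in Brd1+/- vehicle and 146 to 416 TPM in the other libraries. Members that stop within 100 bases of the stem-loop held only 10.5% of that level, so that their own course cannot be read from it. By annotated 3′ end, the members tested for genotype in vehicle mice were estimated higher in Brd1+/- mice in 15 of 15 cases where the transcript stops within 100 bases of the stem-loop (median log2 difference 0.46), in 14 of 20 where it runs on (0.27), in 7 of 7 without a stem-loop found (0.27) and in 8 of 9 without an annotated 3′ UTR (0.35). The differences between these kinds of end were not tested.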

How the data were processed

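The authors aligned single-end reads to GRCm38 with HISAT2 2.1.0 and quantified genes with StringTie 1.3.4, and deposited TPM per gene and library; versions follow the submitters' processing notes. TPM keeps no depth, so no counting interval was computed, and the p-values measure the spread between mice. Groups came from the sample labels, which say amygdala where the series' design text names other regions. No pair of libraries held identical values.

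Values were transformed to log2(TPM + 0.1) and fitted in limma 3.58.1 (R 4.3.3) with a trended prior, on genes with at least 0.1 TPM in at least 8 samples of the fit, with Benjamini-Hochberg adjustment over all genes. The fit was tested on simulated data with known changes. The authors' count test was not used, since TPM is not a count. Members, lists and comparisons were chosen with earlier results of these data known. Named members were the 10 highest by mean and, per comparison, the one with the smallest p in each direction, plus any called; for lists, the 2 highest. Other members are named where a count of 5 or fewer is given or a feature stands out. Sequences came from GENCODE M21 transcripts and RefSeq promoters. Lists of related genes and of cell type markers were fixed with the members; of the 12 lists only the structural RNAs held a called gene with all libraries, and the 11 others had 0 calls in 1204 tests and 146 with an unadjusted p under 0.05. These were uneven: 40 of 88 tests for mature oligodendrocyte, 18 of 88 for astrocyte, 17 of 88 for oligodendrocyte precursor, 15 of 88 each for microglia and endothelial, 7 of 110 for neuron and amygdala, 1 of 75 for choroid plexus and 0 of 88 for striatal markers.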

Additional observations from a re-analysis of the deposited data

Results flagged for a closer look

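The summed level and 21 members, 22 quantities in all, were examined in each of the 6 groups of 8 libraries. In 19 cases a library lay far from the rest of its group, where chance gives about 1 in 20 groups; the groups share libraries and are not independent. WT vehicle 1, rich in choroid plexus markers, lay far above the rest of its group for 7 of the members examined. It had 10.5 TPM of Hist1h2bg, 1.77 TPM of Hist1h2bm, 3.45 TPM of Hist1h3d, 4.65 TPM of Hist2h2ab, 0.986 TPM of Hist1h1d, 1.53 TPM of Hist1h2bk and 2.74 TPM of Hist1h4n. Brd1+/- IMN 2, rich in striatal markers, had a summed level of 359 TPM, with 83.0 TPM of Hist1h1c and 7.71 TPM of Hist1h2bg, each the highest of its group. The 7 other Brd1+/- IMN libraries lay between 177 and 261 TPM in sum.

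WT vehicle 3 had 48.9 TPM of Hist3h2a, against 31.5 to 38.2 TPM in the other WT vehicle libraries. Brd1+/- FLX 8 had 2.69 TPM of Hist1h1d and Brd1+/- vehicle 1 had 0.559 TPM of it. Brd1+/- FLX 2 had 6.61 TPM of Hist2h4, against 1.59 to 3.21 TPM in its group. Libraries that were not among the marker-rich ones stood apart as well: Brd1+/- vehicle 8 with 1.2998 TPM of Hist1h3h, WT FLX 4 with 3.01 TPM of Hist1h3d, WT FLX 2 with 0.686 TPM of Hist1h2af, Brd1+/- vehicle 6 with 1.14 TPM of Hist1h2bk and, as the lowest of its group, WT IMN 1 with 0.0796 TPM of Hist1h2bk.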

How the results depend on the processing

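The count of members called was 0 in all 11 comparisons with a pseudocount of 0.01, without the filter and with a filter at 1 TPM. It stayed 0 with median-ratio scaling, without a prior trend, in 1 fit of all 48 libraries and with a term for sample codes. That term split codes into high and low within vehicle and within drug mice. It therefore cannot set the drugs apart from the gap between their codes and those of vehicle mice. With a pseudocount of 1, 1 member was called for genotype in FLX mice (Hist2h2ab, log2 difference 0.99, adjusted p = 0.0482, limma). With quantile normalization, 1 was called for FLX against vehicle in Brd1+/- mice (Hist1h2af, 1.70, adjusted p = 0.0296, limma). Leaving out each library in turn gave 0 to 2 members called for genotype in FLX mice, 2 without WT FLX 4, and 0 in the 10 other comparisons. Alternatives added after seeing the data left out the 9 marker-rich libraries, which gave 2 members called for genotype in vehicle mice, 4 for FLX against vehicle in WT mice and 1 for the interaction with FLX, and 0 in the 8 other comparisons; leaving out the choroid plexus-rich or the striatum-rich libraries alone gave 0 throughout. The cause was not tested. With a replicate block 0 members were called in every comparison. The replicate numbers do not mark pairs: of 72 same-numbered pairs, 25 had correlated deviations over 0.1, and in 0 of 9 comparisons did every pair. The median difference of the members kept its sign in all planned fits for genotype in vehicle mice (0.17 to 0.54), IMN against vehicle in Brd1+/- mice (-0.38 to -0.13) and FLX against IMN (0.09 to 0.31 in WT, 0.16 to 0.47 in Brd1+/- mice); it changed sign in 5 of 26 planned fits for IMN against vehicle in WT mice, in 4 of 26 for FLX against vehicle in Brd1+/- mice, in 1 of 26 for genotype in IMN mice and in 3 of 42 for the interaction with FLX. Of 7079 recomputed differences of single named members, 11 became called and 399 took the opposite sign without a call in either fit.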
